A study of Cricetulus griseus with 3 samples.

Results

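Pre-mRNA splicing factors and heterogeneous nuclear ribonucleoproteins (hnRNPs) were examined in cells of the Chinese hamster ovary (CHO) line in which γ-secretase was either raised or inhibited. The members were chosen by gene symbol, as array spots named for 1 gene whose symbol began with Srsf, Sfrs, Hnrnp, Hnrp, Sf3a, Sf3b, Snrp, Snrnp, Prpf or U2af, or with Lsm or Rbm and a digit. This gave 150 of the 16928 tested spots and 86 of the 8146 genes with a gene value, the mean over the spots of a gene. S-1 cells, a stable CHO line that overexpresses γ-secretase subunits, among them NCT-GST, Aph1-a2-HA and Flag-Pen2 and was grown under G418, puromycin, zeocin, hygromycin and blasticidin, received 0.05% DMSO for 24 h. The cells they were set against were untransfected parental CHO cells without selection drugs, treated for 24 h with 10 µM DAPT, a γ-secretase inhibitor, in 0.05% DMSO. RNA of 1 culture of each kind was co-hybridised in 2 colours on each of 3 mouse cDNA arrays, 1 for each independent experiment, with the S-1 side in Cy3 on the first pair of arrays and in Cy5 on array 3. S-1 is a single line, and line, constructs, drugs and inhibitor differed together, so their parts in any ratio cannot be told apart.

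Splicing removes introns from a pre-mRNA and joins its exons. It is carried out by the spliceosome, which assembles on each intron from small nuclear ribonucleoproteins (snRNPs), each a small nuclear RNA held in a ring of Sm or LSm proteins together with proteins of its own. The U1 snRNP marks the start of an intron and U2 its branch point, U2AF binds the end of the intron, and the tri-snRNP of U4, U6 and U5 then enters and is rearranged into the catalytic core. SR proteins mostly promote the use of an exon, and hnRNP proteins coat the pre-mRNA and often oppose it, so that the balance of both kinds takes part in alternative splicing.

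All values are log2 ratios, S-1 divided by DAPT-treated CHO, each given as the mean ± SD of the 3 arrays (n = 3), and a log2 ratio of 1 is a 2-fold higher level in S-1 cells. A spot or gene was called higher or lower in S-1 where its limma adjusted p was at most 0.005. Of the transfected genes given here, Psenen, which encodes Pen2, had log2 ratios of 2.84, 3.11 and 3.33 on arrays 1, 2 and 3, and Aph1a had 1.85, 2.17 and 2.04. Ncstn, which encodes nicastrin (NCT), had 0.33, 0.15 and 0.64 and did not pass (adjusted p = 0.0313). The member spots followed each other more closely between arrays 1 and 2, which share a dye orientation (Pearson's r = 0.92 across spots, which are not independent), than between these and array 3 (r = 0.63 and 0.68). Both sides were RNA of whole cultures scaled within each array, so the ratios are relative levels. A change in the share of some cells within a culture and a change in a gene's RNA per cell cannot be told apart.

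Where members moved past the threshold, they were almost all higher in S-1 cells. Of the 150 member spots, 22 (14.7%) were higher, against 9.68% of all tested spots, and 2 (1.33%) were lower, against 8.52% of all tested spots. All 150 lay in the collection of clones marked H, in which 6.76% of 15360 spots were higher and 8.52% were lower. Several clones of 1 gene are not replicates. Of the 22 higher spots, Lsm14a gave 4, Prpf31 3, Srsf3 3 and Rbm18 2. By gene value, 13 of 86 members (15.1%) were higher in S-1, against 12.4% of all genes. No member gene was lower by limma, against 10.3% of all genes, while at an unadjusted p under 0.05 there were 10 members below 0 (11.6%, against 25.5% of all genes) and 36 above (41.9%, against 28.7%). The shares of all genes called, here and below, cover all clone collections unless H clones are named. With H clones alone, 8% of 7489 genes were higher and 10.7% lower, and the same 13 members passed. The 13 genes spanned 1.34-fold to 2.23-fold, and they came from every group except the hnRNP proteins. The groups follow gene symbols, and not every member acts in splicing. The median gene value was 0.09 over the members and 0.01 over all genes, and 44 members (51.2%) lay above 0 on every array, against 37.5% of all genes. Without array 1 the count of higher genes was 4 (against 5.19% of all genes) and without array 2 it was 1 (Snrnp40, against 3.89%). Without array 3, which leaves 1 dye orientation, 26 members were higher and 9 lower, against 21.2% and 19.3% of all genes. With array weights 8 members were lower (against 18.1% of all genes), as were 8 with the dye as a coefficient (against 21.8%).

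**Figure D1:**
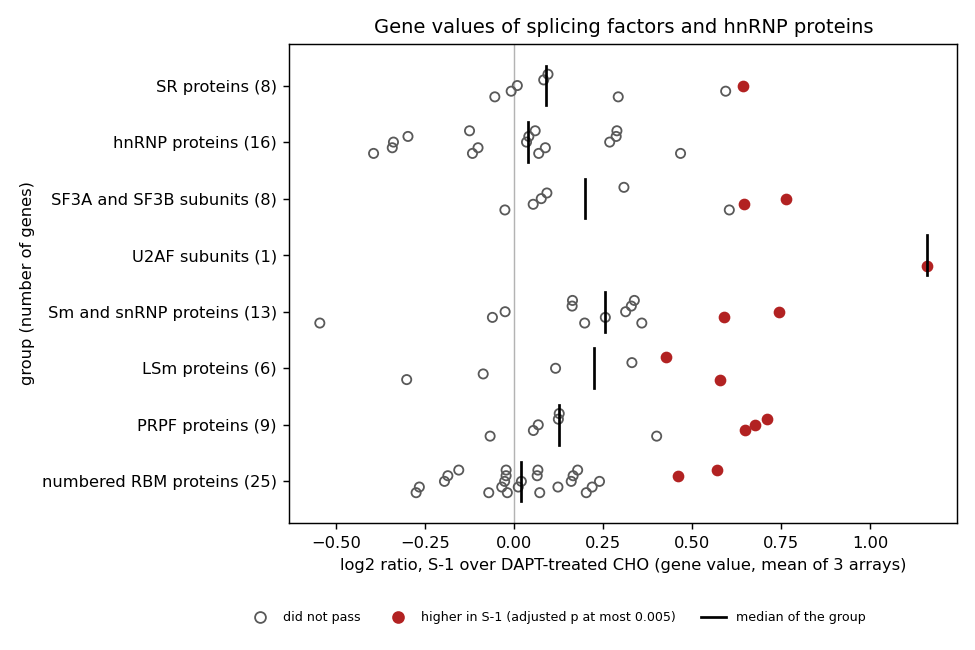
Gene values of the 86 member genes by group (x axis: log2 S-1 to DAPT-treated CHO ratio, mean of 3 arrays; y axis: group with its number of genes, genes spread vertically for sight alone). Filled circles are the 13 genes called higher in S-1, open circles the 73 that did not pass, and black bars the medians, which lie between 0.02 for the RBM proteins and 0.26 for the Sm and snRNP proteins apart from the 1 U2AF gene at 1.16.

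The largest gene value of all members belonged to U2af1l4, which encodes a relative of the small U2AF subunit that reads the AG at the end of an intron. Its log2 ratio was 1.37, 1.27 and 0.83 on arrays 1, 2 and 3 (1.16 ± 0.29, n = 3, limma adjusted p = 0.00134), a 2.23-fold higher level in S-1 cells. Array 3 was the lowest, and there 1 other member, Srsf1, lay above it, while on arrays 1 and 2 none did. U2af1l4 was the only member of the U2AF kind on the array, with 1 spot, and it did not pass when array 1 (adjusted p = 0.00601) or array 2 (0.00919) was left out.

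**Figure D2:**
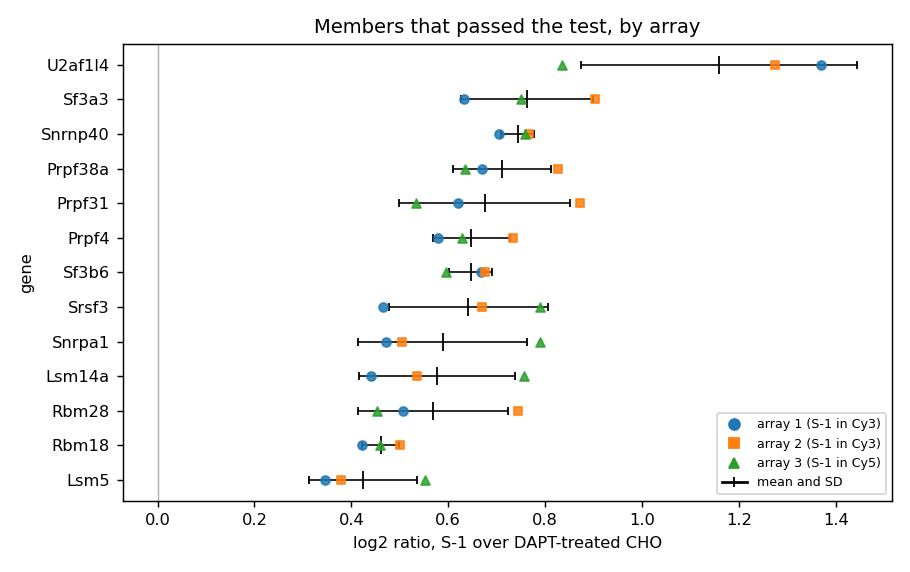
The 13 member genes called higher in S-1 (y axis) with their log2 S-1 to DAPT-treated CHO ratio (x axis) on array 1 (circles), array 2 (squares) and array 3 (triangles), and the mean and SD of the 3 arrays in black. Every point lies above 0, Snrnp40 spans only 0.70 to 0.77 and U2af1l4 spans 0.83 to 1.37.

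The SF3A and SF3B subunits are the proteins that hold the U2 snRNP to the branch point. Of the 8 measured, 2 rose in S-1 cells (25%, against 12.4% of all genes). None was lower (against 10.3%), and the median was 0.20. Sf3a3, a subunit of SF3A, had log2 ratios of 0.63, 0.90 and 0.75 on arrays 1, 2 and 3 (0.76 ± 0.14, adjusted p = 0.000929). Sf3b6, the subunit that touches the branch point adenosine, had 0.67, 0.68 and 0.59 on arrays 1, 2 and 3 (0.65 ± 0.04, adjusted p = 0.00051). All values of both genes lay between 0.59 and 0.90. Sf3a3 did not pass without array 2 (adjusted p = 0.00619), and Sf3b6 did not without array 1 (0.00544) or array 2 (0.00703). Sf3b4 varied more, with log2 ratios of 0.79, 0.83 and 0.19 on arrays 1, 2 and 3 (0.60 ± 0.36, adjusted p = 0.0199) and did not pass. Sf3b1, the large scaffold that is often mutated in blood disorders, had a mean of 0.09 ± 0.38. One of its 2 clones read 0.56 and 0.43 on arrays 1 and 2 but -0.99 on array 3, while the other read 0.14, 0.10 and 0.31. The other large subunits, Sf3b2 (0.05 ± 0.10) and Sf3b3 (-0.03 ± 0.04, the lowest of the group), lay near 0, as did the small subunit Sf3b5 (0.08 ± 0.04). Counted for the U2 snRNP were 10 members, Snrpa1 and Snrpb2 included, with its Sm ring left aside. Of these, 9 lay above 0 and 3 rose, against 12.4% of all genes called higher. Here and below, members that did not pass are named to complete a group or complex, after their values were seen, unless they were the lowest or highest of their group.

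Among the 13 Sm and snRNP proteins, 2 rose (15.4%, against 12.4% of all genes). None was lower past the threshold (against 10.3%), and the median was 0.26. Snrnp40, a protein of the U5 snRNP built of WD repeats, had log2 ratios of 0.70, 0.77 and 0.76 on arrays 1, 2 and 3 (0.74 ± 0.03, adjusted p = 0.000301). Its SD was the smallest of the 13 genes that rose, and it remained past the threshold when any 1 array was left out. Snrpa1, the U2 protein A′ that pairs with Snrpb2 on the U2 RNA, had 0.47, 0.51 and 0.79 on arrays 1, 2 and 3 (0.59 ± 0.17, adjusted p = 0.00322), with array 3 the highest, and did not pass without array 1 (0.0107) or array 2 (0.0159). Its partner Snrpb2 was represented by 3 clones with means of 0.31, 0.31 and 0.32, and its gene value of 0.31 ± 0.09 missed the threshold (adjusted p = 0.00761). The tri-snRNP protein Snrnp27 lay just outside it (0.33 ± 0.07, adjusted p = 0.00512). Snrpc, a U1 protein that helps to read the start of the intron, was at 0.16 ± 0.17, with clones at 0.32 and 0.00. The U5 helicase Snrnp200 was at -0.06 ± 0.34 with array 3 above 0 and the others below.

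The genes of the Sm ring, which closes around the RNA of most snRNPs, did not share a direction. Of the 6 ring genes measured, 5 lay above 0 on every array and 1 lay below 0 on every array, and none passed the threshold. Snrpg, the lowest of all members by gene value, had log2 ratios of -0.56, -0.76 and -0.32 on arrays 1, 2 and 3 (-0.55 ± 0.22, adjusted p = 0.00708), 1.46-fold lower in S-1 cells. Snrpe was at 0.36 ± 0.14 over 3 clones (adjusted p = 0.00979) and Snrpb at 0.34 ± 0.10 (adjusted p = 0.00719). Snrpf, Snrpd1 and Snrpd2 were at 0.26 ± 0.13, 0.20 ± 0.03 and 0.16 ± 0.08. The highest value of Snrpg on any array, -0.32, was below the lowest of the other 5 genes, 0.08, and Snrpg was represented by 1 spot. The difference between the ring genes was not tested.

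**Figure D3:**
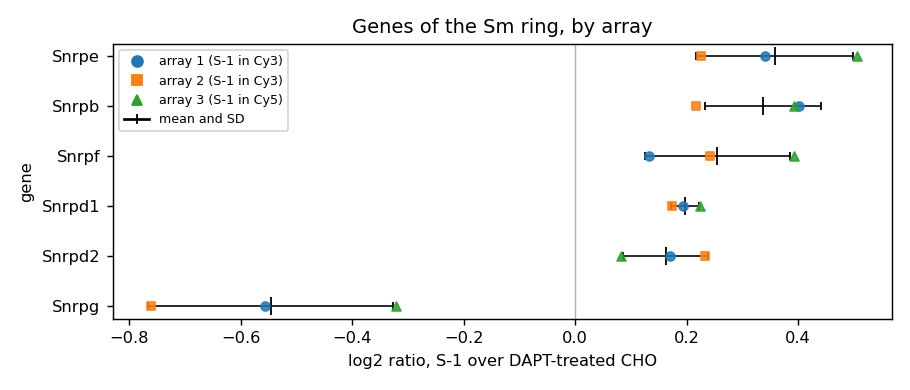
Log2 S-1 to DAPT-treated CHO ratio (x axis) of the 6 measured genes of the Sm ring (y axis) on array 1 (circles), array 2 (squares) and array 3 (triangles), with the mean and SD of the 3 arrays in black. Snrpg lies between -0.76 and -0.32, to the left of 0, and the other 5 genes lie between 0.08 and 0.51.

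Of the 9 PRPF genes, named for yeast mutants with defective pre-RNA processing, 3 rose in S-1 cells (33.3%, against 12.4% of all genes). None was lower (against 10.3%), and the median was 0.13. Prpf38a, which takes part in the activation of the assembled spliceosome, had log2 ratios of 0.67, 0.83 and 0.63 on arrays 1, 2 and 3 (0.71 ± 0.10, adjusted p = 0.000735). Prpf31, which binds the U4 RNA and ties the tri-snRNP together, had 0.62, 0.87 and 0.53 on arrays 1, 2 and 3 (0.67 ± 0.18, adjusted p = 0.00215), and all 3 of its clones passed, at 0.59, 0.68 and 0.75. Prpf4, another protein of the U4/U6 snRNP, had 0.58, 0.73 and 0.63 on arrays 1, 2 and 3 (0.65 ± 0.08, adjusted p = 0.000733). In all 3 genes array 2 was the highest, and without it the adjusted p was 0.00615 for Prpf38a, 0.00913 for Prpf31 and 0.00759 for Prpf4. Without array 1, Prpf38a (0.00542) and Prpf31 (0.011) did not pass either. Prpf38b, a relative of Prpf38a, was at 0.40 ± 0.12, just outside the threshold (adjusted p = 0.00512), with 1 of its 2 clones past it at 0.48.

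The other PRPF proteins lay close to 0. Prpf8, the core of the U5 snRNP, was at 0.05 ± 0.13, Prpf3, the partner of Prpf4 on U4/U6, at 0.07 ± 0.04 over 3 clones, and Prpf6, which bridges U5 and U4/U6, at -0.07 ± 0.10, the lowest of the group. Prpf19, a ubiquitin ligase of the activated spliceosome, was at 0.12 ± 0.07 and the kinase Prpf4b at 0.13 ± 0.14. With its Sm and LSm rings left aside, 8 members were counted for the tri-snRNP. Of these, 3 (Prpf4, Prpf31 and Snrnp40) rose and none was lower, against 12.4% and 10.3% of all genes. Prpf3, Prpf6, Prpf8 and Snrnp200 had gene values between -0.07 and 0.07. The count leaves out tri-snRNP genes that the member rule does not take. Among them, named after their values were seen, Eftud2 was at -0.62 ± 0.28 (limma adjusted p = 0.00862) and did not pass. Usp39 was at 0.39 ± 0.05 (adjusted p = 0.0022) and passed as higher.

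LSm proteins are relatives of the Sm proteins, and 2 of the 6 measured rose in S-1 cells (33.3%, against 12.4% of all genes). None was lower (against 10.3%), and the median was 0.22. Lsm5, which belongs to the LSm ring of the U6 snRNP, had log2 ratios of 0.34, 0.38 and 0.55 on arrays 1, 2 and 3 (0.42 ± 0.11, adjusted p = 0.00379). The other ring genes measured were Lsm2 (0.33 ± 0.08, adjusted p = 0.0051), Lsm8 (0.12 ± 0.15) and Lsm7 (-0.09 ± 0.06), so that 1 of 4 ring genes passed. Lsm14a, which acts on mRNA in the cytoplasm in P-bodies and not in splicing, had 0.44, 0.54 and 0.76 on arrays 1, 2 and 3 (0.58 ± 0.16, adjusted p = 0.00289). Its paralog Lsm14b was the lowest of the group, at -0.22, -0.40 and -0.29 on arrays 1, 2 and 3 (-0.30 ± 0.09, adjusted p = 0.00799), and the arrays of the 2 genes did not overlap. Neither Lsm5 nor Lsm14a passed when array 1 (adjusted p = 0.0163 and 0.00845) or array 2 (0.0238 and 0.0178) was left out.

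Of 8 genes of SR proteins, only Srsf3 rose (12.5%, near the 12.4% of all genes, and against 8% of genes with H clones alone). None was lower (against 10.3% of all genes). Srsf3, the smallest SR protein and one that also acts in mRNA export, had log2 ratios of 0.47, 0.67 and 0.79 on arrays 1, 2 and 3 (0.64 ± 0.16, adjusted p = 0.00213). All 3 of its clones passed, at 0.58, 0.66 and 0.68, and it stayed past the threshold without array 1 or array 3 but not without array 2 (adjusted p = 0.0163). Srsf1, the first SR protein to be described, reached a similar mean with a wider spread, at 0.29, 0.60 and 0.89 on arrays 1, 2 and 3 (0.59 ± 0.30, adjusted p = 0.0127). Srsf6 was at 0.29 ± 0.19, and the other 5 genes lay between -0.05 (Srsf4, the lowest of the group) and 0.09 (Srsf12). Srsf2 was at -0.01 ± 0.15 over 3 clones and Srsf10 at 0.01 ± 0.23 over 2. Srsf5 was below 0 on arrays 1 and 2 and at 0.40 on array 3.

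None of the 16 hnRNP genes passed in either direction by limma, against 12.4% higher and 10.3% lower of all genes. Their median was 0.04, and 4 lay above and 4 below 0 at an unadjusted p under 0.05. The highest was Hnrnpab, which binds A and U rich RNA, with log2 ratios of 0.22, 0.48 and 0.69 on arrays 1, 2 and 3 (0.47 ± 0.24, adjusted p = 0.0139). The lowest was Hnrnpk, which binds C rich RNA and DNA, with -0.54, -0.52 and -0.12 on arrays 1, 2 and 3 (-0.40 ± 0.24, adjusted p = 0.0241), and its 3 clones had close means of -0.43, -0.38 and -0.37. Hnrnpd, also called AUF1, was the steadiest of the genes above 0, at 0.23, 0.29 and 0.28 on arrays 1, 2 and 3 (0.27 ± 0.04, adjusted p = 0.00639). Hnrnpdl, a relative of Hnrnpd, lay below 0 on every array (-0.30 ± 0.10, adjusted p = 0.0104), and 1 of its 2 clones was the only hnRNP spot of 32 to pass, at -0.39 (adjusted p = 0.00453). The gene values of other core hnRNP proteins, Hnrnpc (-0.10 ± 0.16) and Hnrnpa2b1 (0.03 ± 0.26), each with 3 clones, changed sign between the dye orientations. The clones of Hnrnpa2b1 differed, with means of -0.26, 0.18 and 0.18, and the last of these lay above 0 on every array.

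What the hnRNP genes shared was their difference between arrays. In all 16 the log2 ratio on array 3 was above the mean of arrays 1 and 2, by 0.02 to 0.48 with a median of 0.32, whereas this held for 49.5% of all genes. It also held for 31 of 32 hnRNP spots, against 49.0% of all tested spots and 61.9% of the other 118 member spots. Only 6 of the 16 genes were above 0 on array 1 and 6 on array 2, but 12 were on array 3. The same tilt was present in 7 of 8 SR genes (median 0.21) and 11 of 13 Sm and snRNP genes (median 0.08), and the opposite one in 7 of 8 SF3 genes, which had a median of -0.12. Array 3 is both the array with S-1 in Cy5 and a separate experiment, so the dye and the experiment cannot be told apart.

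With the dye orientation as a further coefficient, the S-1 effect is the mean of both orientations, and the spread comes from arrays 1 and 2 alone. In that fit 4 hnRNP genes were higher and 4 lower in S-1, beside 23.2% of all genes higher and 21.8% lower. The higher ones were Hnrnpab (0.52), Hnrnpf (0.36), Hnrnpa3 (0.35) and Hnrnpd (0.27). The lower ones were Hnrnpk (-0.33), Hnrnpdl (-0.28), Hnrnpul2 (-0.26) and Hnrnpa0 (-0.26). Over all 86 members, 30 were then higher (34.9%) and 8 lower (9.30%).

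**Figure D4:**
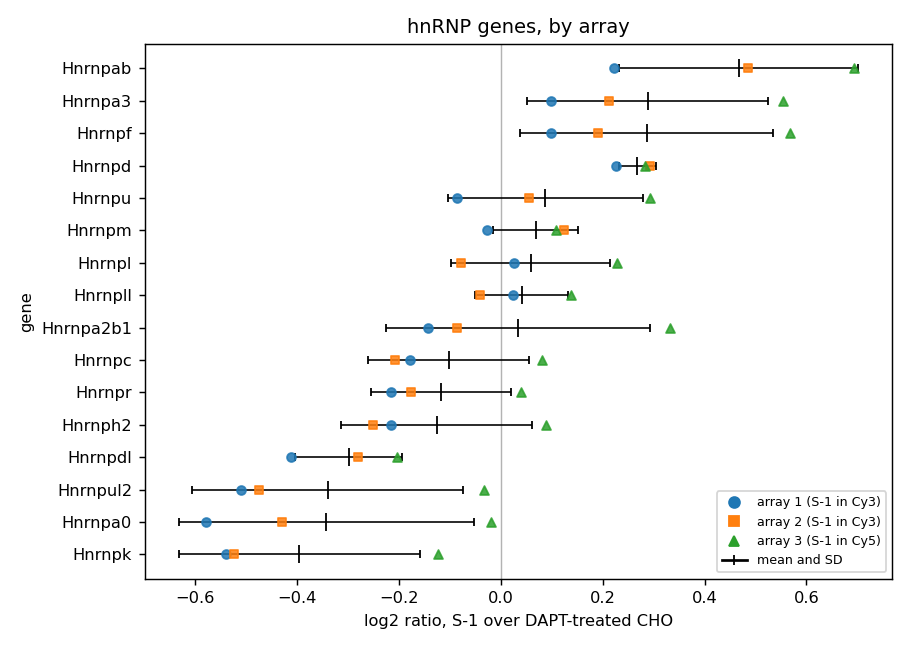
Log2 S-1 to DAPT-treated CHO ratio (x axis) of the 16 hnRNP genes (y axis) on array 1 (circles) and array 2 (squares), with S-1 in Cy3, and on array 3 (triangles), with S-1 in Cy5. Black bars are the mean and SD of the 3 arrays, and in 14 of the 16 genes the triangle lies to the right of both other points.

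The 25 numbered RBM genes are named for an RNA binding motif and have mixed roles. Their median was 0.02, and 23 of the 25 lay between -0.3 and 0.3. Of all 25, 2 were higher (8%, against 12.4% of all genes) and none was lower (against 10.3%). With H clones alone, the collection of all members, 8% of the 7489 genes were higher and 10.7% lower. Rbm28, a nucleolar protein that also associates with snRNPs, had log2 ratios of 0.51, 0.74 and 0.45 on arrays 1, 2 and 3 (0.57 ± 0.16, adjusted p = 0.00283). Rbm18, a little studied protein, had 0.42, 0.50 and 0.46 on arrays 1, 2 and 3 (0.46 ± 0.04, adjusted p = 0.00123), and both of its clones passed. Neither passed without array 1 (adjusted p = 0.0137 and 0.0104) or array 2 (0.0134 and 0.0161). At the lower end lay Rbm22, a protein of the catalytic spliceosome, with -0.20, -0.42 and -0.21 on arrays 1, 2 and 3 (-0.28 ± 0.12, adjusted p = 0.0174). By gene value, Rbm17 (0.24 ± 0.08), which takes part in the choice of the 3′ splice site, lay above 0 on every array without passing. So did Rbm25 (0.20 ± 0.04 over 4 clones), which acts with U1. The clones of Rbm17 differed, at 0.05 and 0.43. Rbm5 (-0.16 ± 0.10), Rbm6 (-0.03 ± 0.11) and Rbm10 (0.22 ± 0.14), a family of related splicing regulators, showed no shared direction.

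Several clones of a gene allowed its value to be compared between spots. They share the RNA, the arrays and the normalisation, so their agreement is no check on effects of these. Of the 86 genes, 35 had 2 or more spots, and the range between the clones of a gene had a median of 0.16 and was under 0.2 in 22 genes. It exceeded 0.5 in 3 genes. Lsm14a had 4 clones past the threshold, at 0.68 to 0.76, and the fifth at -0.02. Hnrnpa3, a relative of Hnrnpa1, had 5 clones between 0.18 and 0.54 and the sixth at -0.25, none past the threshold. Rbm26 had 1 clone that passed, lower in S-1 at -0.73 ± 0.15 (adjusted p = 0.00146), while its other 4 lay between -0.21 and 0.08 and its gene value was -0.20 ± 0.06. In each of these genes 1 clone stood apart from the rest, and the gene value averages over both. All clones of Prpf31, Srsf3 and Rbm18 passed in the same direction.

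**Figure D5:**
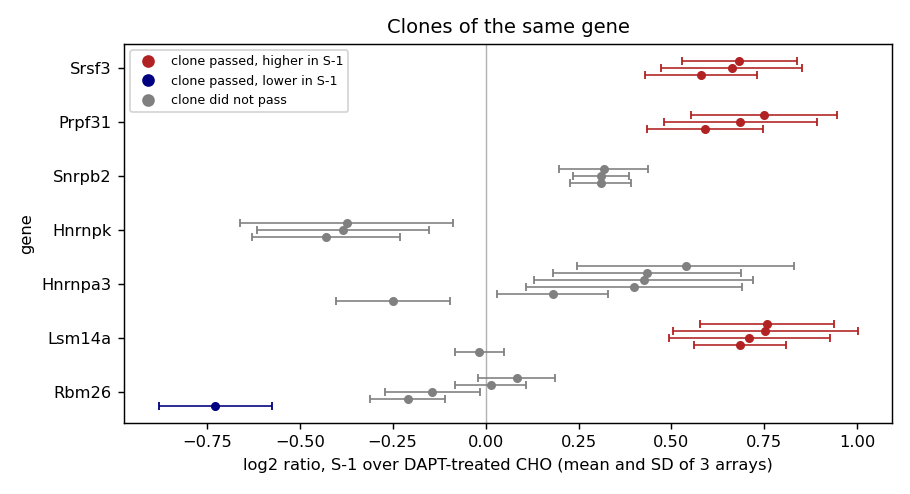
Log2 S-1 to DAPT-treated CHO ratio (x axis) of each clone of 7 member genes (y axis), as the mean and SD of the 3 arrays. Red clones passed as higher in S-1, blue as lower and grey did not pass: the clones of Srsf3, Prpf31, Snrpb2 and Hnrnpk lie together, while Hnrnpa3, Lsm14a and Rbm26 each have 1 clone apart from the rest.

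Other genes of the splicing pathway, whose symbols the member rule does not take, were described from a list of 158 genes, of which 114 had a gene value. Of these, 18 (15.8%) were higher and 6 (5.26%) lower in S-1, with a median of 0.08, beside 12.4% and 10.3% of all genes. Without array 1 there were 6 higher and 0 lower, beside 5.19% and 3.07% of all genes. Without array 2 there were 1 and 0, beside 3.89% and 2.07%, and without array 3 there were 34 and 18, beside 21.2% and 19.3%. By role, 5 of 16 genes for snRNP assembly, the exon junction complex and mRNA export were higher and 1 lower. The higher ones included the export genes Thoc5 and Alyref. Of 45 other spliceosome subunits, 9 were higher and 1 lower. Of 36 regulators of splice site choice 3 were higher and 1 lower. Of 11 genes of RNA helicases, with the GTPase Eftud2 counted among them, 1 was higher and 2 lower. Of 6 kinases of SR proteins 1, Dyrk1a (-0.44), was lower and none higher.

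The largest values above 0 past the threshold were led by Ddx39a, a helicase of mRNA export (1.02 ± 0.23, adjusted p = 0.00119). Thoc5 of the THO export complex followed (0.87, 1.23 and 0.90 on arrays 1, 2 and 3, adjusted p = 0.000932). Next came Gemin2, which acts with SMN to load the Sm ring (0.82 ± 0.16, adjusted p = 0.000993), and the spliceosome protein Smu1 (0.78 ± 0.11, adjusted p = 0.0006). Tra2b, an SR-like protein that promotes exon inclusion, had log2 ratios of 0.68, 0.68 and 0.73 on arrays 1, 2 and 3 (0.69 ± 0.03, adjusted p = 0.000352), with both of its clones past the threshold. Phf5a, a further SF3B subunit named here after its value was seen, was at 0.74 ± 0.12 (adjusted p = 0.000882). The largest values below 0 past the threshold were those of Dhx8, the helicase that releases spliced mRNA (-0.76 ± 0.19, adjusted p = 0.00172), the cold-inducible RNA binding protein Cirbp (-0.65 ± 0.08, adjusted p = 0.000713), the helicase Ddx41 (-0.56 ± 0.03, adjusted p = 0.00068) and Casc3 of the exon junction complex (-0.53 ± 0.11, adjusted p = 0.00187).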

How the data were processed

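Total RNA of S-1 and DAPT-treated CHO cells was amplified, labelled and hybridised to arrays of mouse cDNA clones, with 1 culture of each kind on each of 3 arrays. The deposited values used here are log2 ratios, 1 for each spot and array, normalised by the authors with lowess within each print-tip group and with no background subtracted, and no value was missing. The labels give the dyes but not the direction of the ratio, and all columns were read as S-1 over DAPT-treated CHO. The basis is the transfected Psenen and Aph1a, which are high on every array, and the study's lists of raised and lowered clones, paired to spots by the size of their fold without its sign. Of the listed clones whose fold size only 1 spot has, all 1109 raised lay above 0 and all 1265 lowered lay below 0. Fold changes given here are 2 to the power of the log2 ratio, for example 8.53 for Psenen and 4.06 for Aph1a. For the pairing this size was multiplied by 2. The folds that the study lists for the paired clones are therefore 2 times those on the scale used here. The reason for this factor was not tested. Spot intensities were not used here, so signal over background is not given, and the number of arrays limits the precision.

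The 736 spots without a gene name at the same 23 positions of each of the 32 print-tip blocks were taken as controls, after their values were seen, and left out. Gene names came from the current annotation of the array. Of the tested spots, 12563 had 1 symbol, 412 had several and 3953 had none. limma 3.58.1 in R 4.3.3 fitted 1 coefficient against 0 over all spots and, separately, over all gene values, with empirical Bayes variances and Benjamini-Hochberg adjustment, at the study's threshold of 0.005. Tables and figures were made with Python 3.11.15, pandas 2.3.3, NumPy 2.4.6 and Matplotlib 3.10.9. The fit was tested on simulated data. A gene of the same symbol was found for 78 of the 86 members in the RefSeq annotation of the Chinese hamster, and how closely each clone matches the hamster transcript was not tested.

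The members, the groups and the list of other splicing genes were chosen with earlier results of these data known. The genes named were to be every member with a gene value or spot past the threshold, the highest and lowest of each group, and, of the other splicing genes, the 4 largest past the threshold in each direction and Tra2b. Members named beyond these complete a group. Each fit was repeated with each array left out, at a threshold of 0.05, with a minimum ratio of 1.5, after centring, scaling or quantile normalisation of the arrays, with array weights, with the dye as a coefficient, with a robust prior for the variance, with the control spots, with H clones alone, and with the median of a gene's spots as its value.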

Additional observations from a re-analysis of the deposited data

How the results depend on the processing

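The 3 arrays limit every call. Among the members, spots higher in S-1 numbered 22, and 0 to 46 when 1 array was left out. Lower spots numbered 2, and 0 to 18. Higher genes numbered 13, and 1 to 26, and lower genes 0, and 0 to 9. For the other splicing genes the ranges were 1 to 34 for the 18 higher genes and 0 to 18 for the 6 lower ones. The fewest calls came without array 2 and the most without array 3. Of all spots, 1.55% were higher and 0.591% lower without array 2, and 18.8% and 18.2% without array 3. Of all genes these shares were 3.89% and 2.07%, and 21.2% and 19.3%. The 13 genes passed under every other alternative except a minimum ratio of 1.5, which kept 9 and lost Lsm14a, Lsm5, Rbm18 and Rbm28.

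At a threshold of 0.05 there were 54 higher and 11 lower member spots, 34 and 7 member genes, and 38 and 19 other splicing genes, beside 20.9% and 18.8% of all spots and 24.4% and 21.8% of all genes. With the dye as a coefficient these were 54 and 14, 30 and 8, and 37 and 16, beside 20.6% and 19.7% of all spots and 23.2% and 21.8% of all genes. With array weights they were 39 and 12, 24 and 8, and 31 and 15, beside 16.4% and 15.5% of all spots and 20.4% and 18.1% of all genes. The minimum ratio left 1 lower member spot, beside 4.97% of all spots. It left 9 higher and 2 lower other splicing genes, beside 6.7% and 5.01% of all genes. Including the control spots, which follow the dye, left 5 higher and 0 lower member spots, beside 3.84% and 2.87% of all spots, while gene values do not involve them. The remaining alternatives kept each of these counts within 1.5 times, and none of the 13 called genes changed its direction. Among the members that did not pass, up to 8 of the 86 gene values changed sign under an alternative, the most without array 3. With the dye as a coefficient 5 did, among them Sf3b1 (-0.02), Snrnp200 (0.03) and Srsf2 (0.02). The cause of these differences was not tested. Each ratio already pairs the 2 cultures of 1 array, so the test of the ratios against 0 is itself paired, and there is 1 group.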

Other observations

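A further 11 spots carried a splicing name beside that of a neighbouring gene in the annotation and were not counted as members. One, named for U2af1l4 and Igflr1, passed as higher in S-1, with log2 ratios of 0.80, 0.83 and 0.42 on arrays 1, 2 and 3 (0.68 ± 0.23, n = 3, limma adjusted p = 0.00436). As with the spot named for U2af1l4 alone, array 3 was the lowest. Hnrnpa1, the most studied hnRNP protein, was measured only on 3 spots that also carry the name of Ccr9, at 0.14, 0.11 and 0.28, and none passed. On 2 of these spots, as in the hnRNP genes above, array 3 stood well above the others, at 0.34 against 0.07 and 0.02, and at 0.34 against 0.00 and -0.01.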
